A study of Mus musculus with 22 samples.

Results

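The libraries compared here are 4 of the 22 in the series: mouse fibroblasts transfected with Oct4, Sox2 and Klf4 (OSK) and taken on days 3 and 7 from medium without bFGF, or on the same days from medium without GSK3 inhibitors. They were picked by their labels, with earlier results of these data known, and paired by day. All 4 came from embryonic fibroblasts (MEFs) of OG2 transgenic mice at passage P2, on a mixed background of 129SVJ (1/2), C57B6 (3/8) and CBA (1/8), after 2 days of transfection. OG2 is a reporter transgene that marks activity of the Oct4 locus. The GSK3 inhibitors left out were CHIR-99021 and LiCl, both together. The labels name what each medium lacked, not what else it held. Each medium and day is 1 library of total RNA (n = 1), the labels do not say whether cultures were shared or pooled, and the vector is not given. OSK libraries without vitamin C on days 3 and 7, 2 more libraries of the same technical set, gave the tests a further estimate of the error.

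GSK3 is a kinase that marks beta-catenin for destruction. Inhibiting it lets beta-catenin accumulate and, with TCF and LEF proteins on DNA, switch on Wnt target genes, many of which encode brakes on the same pathway. bFGF (Fgf2) binds FGF receptors and drives the RAS-ERK kinase cascade, whose own brakes are the Sprouty, Spred and Dusp proteins. Both pathways act on fibroblast growth and on the self-renewal of pluripotent stem cells, which makes them common ingredients of reprogramming media.

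Levels are given as CPM, counts scaled to a common library total after TMM correction, which are comparable between libraries for 1 gene but not between genes. Differences are fitted log2 differences, without bFGF minus without GSK3 inhibitors, from edgeR's quasi-likelihood test with day as a block. A positive value therefore means more RNA in the medium without bFGF, and a negative value more RNA in the medium without GSK3 inhibitors. A gene was called at a Benjamini-Hochberg adjusted p under 0.05 over all genes. The standard error (SE) reflects how differences between media varied from day to day over 6 libraries, not the spread of replicates. It also borrows from the other genes, with a median prior of 10.1 degrees of freedom beside 2 residual ones.

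The 4 libraries held 11612535 to 18732135 counts, so that 3 counts, the upper limit allowed by a count of 0, correspond to 0.156 to 0.256 CPM, for counting error only. Their rank correlations with each other lay between 0.938 and 0.983. Fibroblast markers were abundant in all 4 libraries: all 8 markers reached 1 CPM in each, with sums of 16607 and 8308 CPM without bFGF and 7598 and 5628 CPM without GSK3 inhibitors on days 3 and 7. Pluripotency markers summed to 41.5 and 247 CPM without bFGF and to 34.8 and 123 CPM without GSK3 inhibitors. The day 7 sums reflect no common direction of these markers. Cdh1, the largest part of the sum without bFGF, Sall4 and Dppa5a were higher there, whereas Nanog and Zfp42 were lower (values below). Macrophage markers summed to 24.0 and 6.45 CPM against 29.8 and 17.6 CPM, adipocyte markers to under 2 CPM in each library, and Myod1 and Myog had no count in any. Summed Y-linked RNA (4 genes) was 62.0 and 123.9 CPM without bFGF and 33.6 and 84.4 CPM without GSK3 inhibitors. The part of cell mixture in the results below was not tested. In these bulk samples, fewer cells of a type and less RNA per cell cannot be told apart. Genes of the lowest GC content (1 of 5 equal groups) deviated by -0.42 and 0.12 (log2) without bFGF and by -0.36 and -0.18 without GSK3 inhibitors.

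Of 13959 genes tested, 747 (5.35%) were higher without bFGF and 750 (5.37%) higher without GSK3 inhibitors, 1497 (10.7%) in all. The fitted difference had the same sign as the ratios of both days in 743 of the 747 and in all 750. Of 11211 genes with at least 5 CPM in 1 of both day 3 libraries, 297 (2.65%) were at least 2-fold higher without bFGF and 353 (3.15%) at least 2-fold higher without GSK3 inhibitors. On day 7 these were 531 (4.62%) and 622 (5.41%) of 11502 genes. At least 2-fold in the same direction on both days were 399 of 11039 genes (3.61%), which is 61.4% of the genes of day 3 and 34.6% of those of day 7. More genes were thus 2-fold apart on day 7 than on day 3, with 1 library per medium and day and no test. The count of calls rests on the day 7 libraries most: it was 267 without the bFGF-free library of day 7 and 383 without its GSK3 inhibitor-free partner. Without the bFGF-free library of day 3 it was 894. Adding both OSK libraries that lack no agent, which belong to another technical set, left 437 calls, of which 431 were among the 1497.

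**Figure D1:**
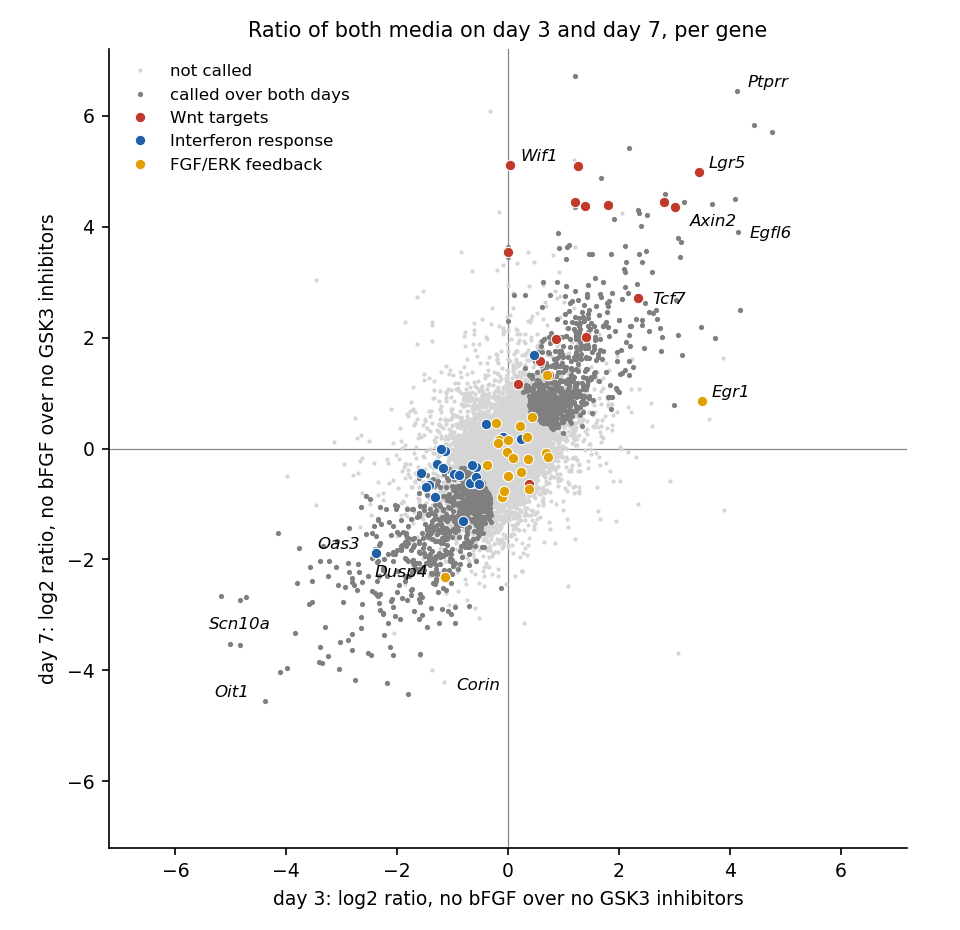
Each point is 1 tested gene, at its log2 ratio (without bFGF over without GSK3 inhibitors, prior count 2) on day 3 (horizontal axis) and day 7 (vertical axis). Wnt targets lie mostly at the upper right with the larger ratio on day 7, and most FGF/ERK feedback genes lie near 0, with Egr1 to the right (3.49 on day 3) and Dusp4 at the lower left (-1.13 and -2.32).

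Direct Wnt target genes were in part higher without bFGF, and Lgr5 and Axin2 were among the 10 largest called differences in that direction. Among 22 genes of the list, 17 were abundant enough to test. Of these, 10 were called higher without bFGF and 0 lower, where 5.35% of all genes tested were called higher. The median fitted difference was 3.34, or 2.55 with the 2 members that had no count without GSK3 inhibitors set to their bound, against 0.01 over all genes. The median log2 ratio was 1.2 on day 3 and 3.54 on day 7. These are the values of Cdx1 on day 3 (3 against 0 counts) and of Sp8 on day 7 (31 against 0 counts). Both depend on the prior count of 2 and are no measure of size. The list was chosen with earlier results of these data known, so its direction is a description of these libraries. The other 5 (Dkk1, Dkk4, Ascl2, Cdx2 and T) did not pass the filter on low counts.

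TCF and LEF proteins bind a short core sequence, written here as CTTTGAA or CTTTGAT and searched on both strands in RefSeq promoter windows of build GRCm38.p6 (250 bases before to 50 after the start, 300 in all). It occurred in 9.88% of all 27025 gene symbols with a window. Of the Wnt targets 14 had a window, and 5 held the core (Dkk1, Sp5, Sp8, T and Tnfrsf19). Of the 10 called targets 7 had a window, and 2 held it. The windows of Axin2 and Tcf7 held none, which says only that these letters are not in this window. The promoters of Sp5, Sp8 and Tnfrsf19 are shown because these are the tested members whose windows hold the core. Sp5 and Sp8 were called, and Tnfrsf19 was not. Sp8 and Tnfrsf19 have several start sites, and the window that holds the core is shown. Each is the 250 bases before the start, 5′ to 3′ along the gene, with the core in capitals.
Sp5 promoter, chr2:70474673-70474922, plus strand: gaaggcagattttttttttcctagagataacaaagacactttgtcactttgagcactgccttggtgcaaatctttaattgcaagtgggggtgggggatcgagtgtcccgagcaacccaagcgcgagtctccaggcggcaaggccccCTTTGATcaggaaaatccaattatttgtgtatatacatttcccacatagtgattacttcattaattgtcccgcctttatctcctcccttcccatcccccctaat
Sp8 promoter, chr12:118846983-118847232, plus strand: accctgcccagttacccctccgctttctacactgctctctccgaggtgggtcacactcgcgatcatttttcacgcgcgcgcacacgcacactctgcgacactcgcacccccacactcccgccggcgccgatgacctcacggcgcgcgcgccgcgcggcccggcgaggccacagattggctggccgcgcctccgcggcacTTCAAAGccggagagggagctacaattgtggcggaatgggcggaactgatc
Tnfrsf19 promoter, chr14:61037988-61038237, minus strand: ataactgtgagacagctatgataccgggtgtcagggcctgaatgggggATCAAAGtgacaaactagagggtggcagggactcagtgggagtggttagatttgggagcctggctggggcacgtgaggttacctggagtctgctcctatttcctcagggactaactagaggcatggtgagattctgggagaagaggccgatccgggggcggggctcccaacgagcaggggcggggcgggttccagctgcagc

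Axin2, a scaffold of the complex that destroys beta-catenin and a standard readout of the pathway, lies on chromosome 11 (108920349 to 108950783, mm10, ENSMUSG00000000142). It stood at 43.0 CPM (95% Poisson interval 39.7 to 46.4) and 142 CPM (137 to 148) on days 3 and 7 without bFGF. Without GSK3 inhibitors it stood at 5.18 CPM (4.00 to 6.61) and 6.82 CPM (5.41 to 8.48). Both libraries without bFGF were thus above both without GSK3 inhibitors, with a fitted difference of 3.73 (SE 0.36, edgeR adjusted p = 0.000962). The vitamin C-free libraries lay between them, at 17.6 and 70.1 CPM. The OSK libraries that lack no agent, from the other technical set and scaled separately, stood at 34.7 and 51.7 CPM. The call for Axin2 was lost without the bFGF-free library of day 7.

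Tcf7, which encodes a TCF protein that binds beta-catenin, stood at 52.0 and 98.2 CPM without bFGF and at 10.1 and 14.7 CPM without GSK3 inhibitors. Its difference of 2.55 (SE 0.20, edgeR adjusted p = 3.61e-05) held in every alternative with day as a block. Lef1, its relative, was higher without bFGF by less (1.11, SE 0.27), at 11.3 and 26.5 against 7.50 and 8.78 CPM. Its call was lost without either day 7 library.

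Regulators of Wnt receptors and of Dishevelled were, like Axin2, higher without bFGF than without GSK3 inhibitors. Lgr5, a receptor for R-spondins and a stem cell marker of the gut, stood at 11.0 and 31.8 CPM without bFGF and at 0.877 and 0.852 CPM without GSK3 inhibitors. That is 11 and 10 counts in the latter libraries, and the difference was 4.48 (SE 0.43, edgeR adjusted p = 0.000125). Rnf43, a ubiquitin ligase that removes Wnt receptors, stood at 3.15 and 14.3 against 0.319 and 0.511 CPM (4.23, SE 0.47), and the related ligase Znrf3 at 20.5 and 33.9 against 12.3 and 13.4 CPM (1.04, SE 0.21). Nkd2, an inhibitor of Dishevelled, stood at 34.2 and 81.8 against 12.8 and 20.2 CPM (1.74, SE 0.23). In all 4 genes the groups did not overlap, which describes genes already called on these libraries and is no further support. The OSK libraries that lack no agent, from the other technical set, held 5.13 and 0.775 CPM of Lgr5 and 9.45 and 7.17 CPM of Nkd2. They held 5.81 and 5.17 CPM of Rnf43 and 29.7 and 25.1 CPM of Znrf3. These OSK levels came from a separate TMM scaling of 8 libraries, so that close values cannot be ranked. Nkd2 on both days and Lgr5 on day 7 were not clearly higher there than without GSK3 inhibitors, unlike Rnf43 and Znrf3. Lgr5, Rnf43 and Nkd2 kept their calls in every alternative with day as a block, while Znrf3 lost its call without either day 7 library.

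Among transcription factors on the list, Sp5 had 10 and 159 counts without bFGF (0.657 and 8.27 CPM) and 2 and 3 counts without GSK3 inhibitors. Its ratio on day 7 was 32.3 (95% counting interval 10.9 to 159). Its fitted difference was 4.11 (SE 0.70, edgeR adjusted p = 0.0037). Cdx1, a homeobox gene of the posterior embryo, had 0 counts in both libraries without GSK3 inhibitors and 60 counts on day 7 without bFGF, at least 12.2-fold higher. Sp8 had 31 counts on day 7 without bFGF and 0 in the other 3 libraries, at least 6.31-fold higher than its day 7 partner. Both were called, and both calls were lost without either day 7 library. In all, Cdx1 did not keep its call in 7 of the alternatives and Sp8 in 10. These calls, with that of Sp5, rest on very few counts.

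Several targets were further apart on day 7 than on day 3. Wif1, a secreted Wnt inhibitor, stood at 0.985 and 0.957 CPM on day 3, without bFGF and without GSK3 inhibitors, and at 43.4 and 1.11 CPM on day 7. Tnfrsf19 went from 3.28 and 1.28 CPM to 43.1 and 1.11 CPM. Nkd1 went from 11.2 and 3.11 CPM to 121 and 5.62 CPM, Notum, an enzyme that inactivates Wnt proteins, from 8.93 and 4.87 CPM to 69.2 and 17.5 CPM, and Apcdd1 from 178 and 157 CPM to 418 and 186 CPM. None of these 5 passed the test over both days (edgeR adjusted p = 0.0652 to 0.194). A difference that changes between days enters the error of this test, and whether the days differ cannot be tested with 1 library each. Ccnd1 (1099 and 683 against 1107 and 957 CPM) and Bambi (5.91 and 2.39 against 4.55 and 3.83 CPM) overlapped between media.

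**Figure D2:**
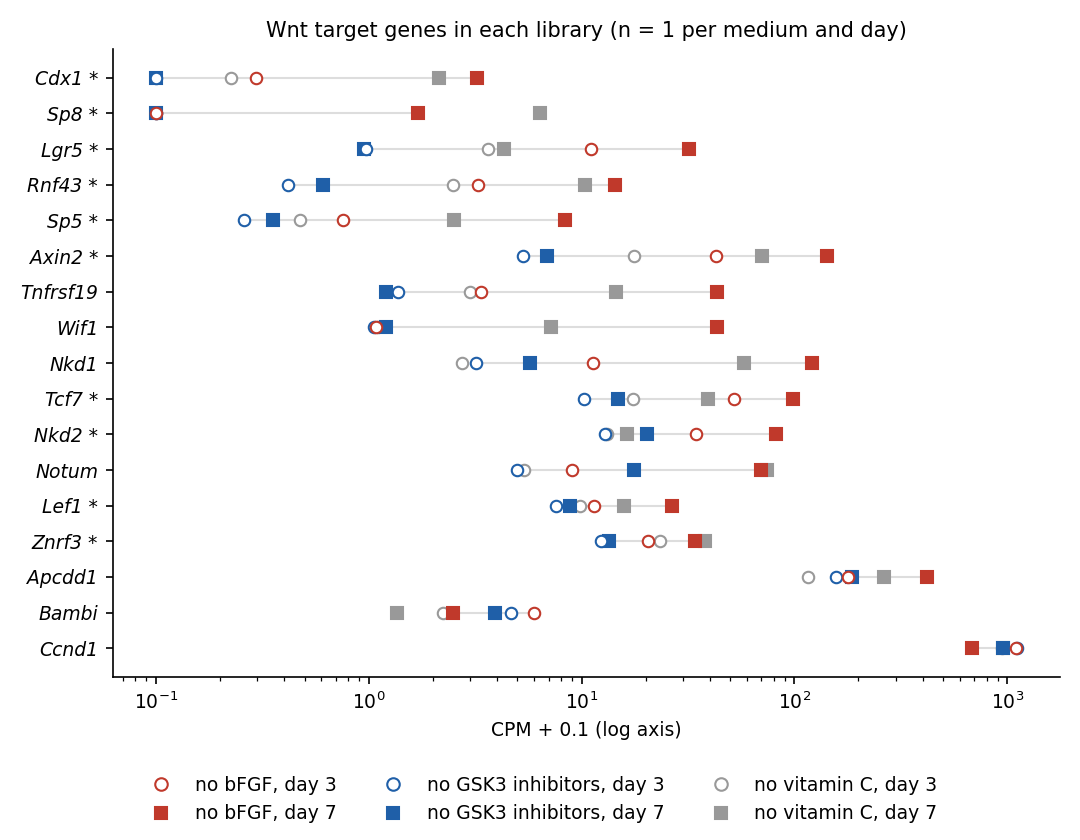
Level of each tested Wnt target (vertical axis, sorted by fitted difference, asterisk where called) in CPM plus 0.1 on a log axis, with 1 point per library. Axin2, Lgr5, Rnf43, Tcf7 and Nkd2 have both points without bFGF above both without GSK3 inhibitors, whereas Wif1 has its points close together on day 3 and apart on day 7 (43.4 against 1.11 CPM).

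The count of called Wnt targets was 4 without the bFGF-free library of day 7 and 6 without the GSK3 inhibitor-free library of day 7. It was 5 in limma on log2(TPM + 1), which differs in test, unit and pseudocount together.

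Of 41 ligands, receptors and other components of the Wnt pathway tested, 5 were higher without bFGF and 1 (Tcf7l2) higher without GSK3 inhibitors, with a median of 0.08, where 5.35% and 5.37% of all genes tested were called in these directions. Sfrp4, a secreted Wnt binder, stood at 38.4 and 39.0 CPM without bFGF and at 6.94 and 11.0 CPM without GSK3 inhibitors (2.15, SE 0.24), above its partner on both days and in every alternative with day as a block. Dkk3 stood at 68.7 and 93.4 against 39.2 and 46.2 CPM (0.91, SE 0.16) and the ligand Wnt3 at 3.55 and 8.27 against 1.44 and 1.96 CPM (1.72, SE 0.38). The co-receptor Lrp6 was called at a smaller difference (0.62, SE 0.15). Tcf7l2, a relative of Tcf7, stood at 28.9 and 20.7 against 39.8 and 45.3 CPM (-0.79, SE 0.20). The calls for Dkk3, Wnt3, Lrp6 and Tcf7l2 were lost without either day 7 library, that for Lrp6 also without the GSK3 inhibitor-free library of day 3, and in either day 7 case 1 call was left on the list.

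FGF/ERK feedback genes, the counterpart for bFGF, showed no common direction. Of 21 tested, 1 was called higher without bFGF and 1 higher without GSK3 inhibitors, near the shares over all genes (5.35% and 5.37%), and the median was -0.01. Among the Sprouty brakes, Spry2 stood at 105 and 91.5 CPM without bFGF and at 89.3 and 122 CPM without GSK3 inhibitors, and Spry4 at 144 and 168 against 114 and 145 CPM. Dusp6, a phosphatase that switches off ERK, stood at 113 and 85.7 against 122 and 158 CPM (-0.50, SE 0.19, edgeR adjusted p = 0.114). The ERK-responsive factor Etv5 stood at 248 and 216 against 260 and 365 CPM, and Etv4 at 29.8 and 20.4 against 23.1 and 23.3 CPM. None of these 5 was called, and the order of media for Spry2 and Etv4 differed between the days.

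Dusp4, another phosphatase of ERK, was the member higher without GSK3 inhibitors. It stood at 35.0 and 10.6 CPM without bFGF and at 77.1 and 53.3 CPM without GSK3 inhibitors (-1.70, SE 0.26, edgeR adjusted p = 0.00407), apart on both days and in every alternative with day as a block. Il17rd (Sef), a membrane brake on FGF receptors, went the other way, at 120 and 197 against 74.1 and 78.6 CPM (1.00, SE 0.19, edgeR adjusted p = 0.00611), a call lost without either day 7 library. Egr1, an immediate early gene of ERK, stood at 222 CPM (95% Poisson interval 214 to 229) on day 3 without bFGF and at 19.6 CPM (17.2 to 22.2) without GSK3 inhibitors. On day 7 it stood at 117 and 65.0 CPM. The fitted difference of 2.14 (SE 0.75, edgeR adjusted p = 0.202) did not pass. Its relative Egr2 had the same order, at 11.2 and 3.48 against 1.28 and 1.96 CPM, and passed narrowly (edgeR adjusted p = 0.0409), a call lost in 8 of the alternatives, among them without either day 3 library and without the bFGF-free library of day 7.

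Of 19 FGF ligands and receptors tested, 4 were higher without bFGF and 0 lower, against 5.35% and 5.37% of all genes. The counts were 1 and 0 without the bFGF-free library of day 7, 0 and 1 without the GSK3 inhibitor-free library of day 7, 2 and 1 without that of day 3, 5 and 2 without either vitamin C-free library, 2 and 0 with the OSK libraries or in limma on log2(TPM + 1), and 3 and 2 in DESeq2. Fgf9 stood at 2.30 and 18.7 CPM without bFGF and at 0.399 and 2.56 CPM without GSK3 inhibitors (2.72, SE 0.41), and the receptor Fgfr4 at 2.36 and 11.6 against 0.399 and 2.39 CPM (2.39, SE 0.41). In each gene the library without bFGF was above its partner on both days. Both calls were lost without either day 7 library. Fgfrl1, a receptor without a kinase domain, stood at 213 and 187 against 107 and 125 CPM (0.79, SE 0.17), and its call was lost without the bFGF-free library of day 3 and without either library that lacks GSK3 inhibitors. Fgf2 itself had 1 to 3 counts in each of the 4 libraries.

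**Figure D3:**
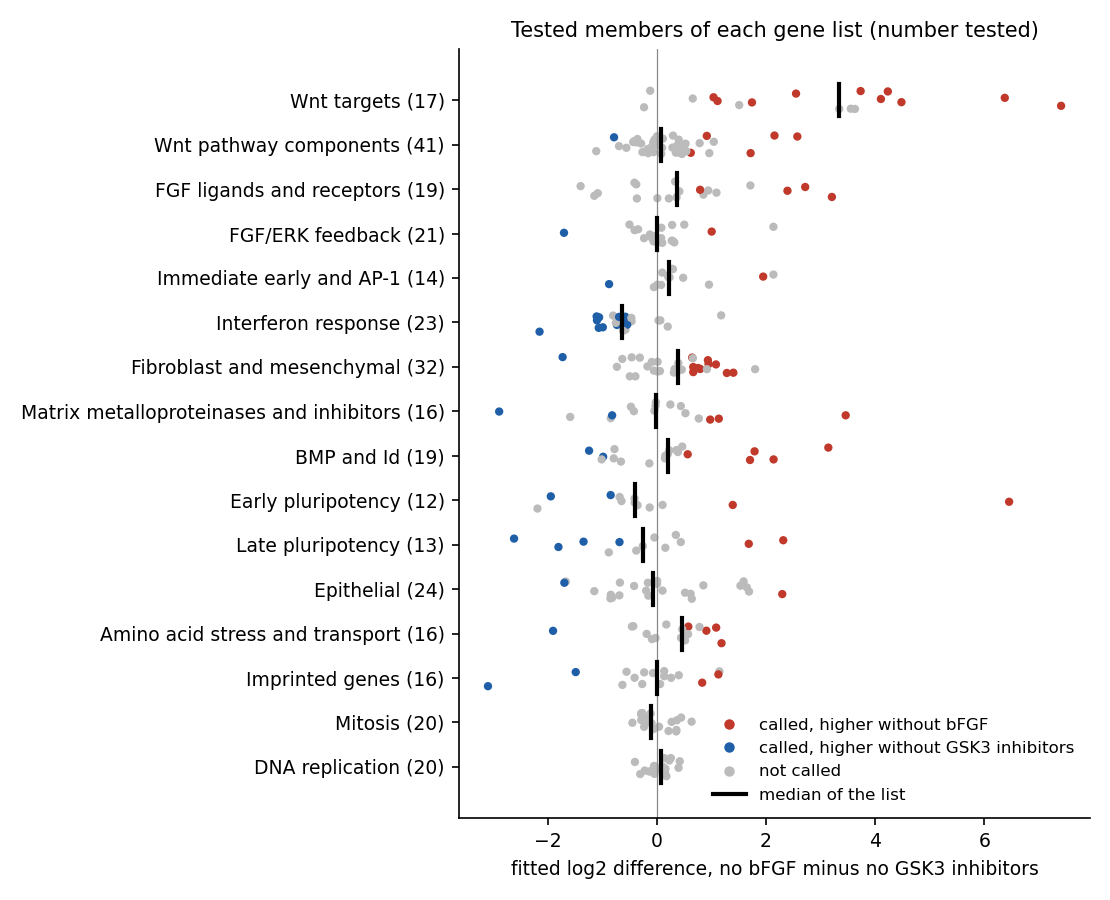
Each point is the fitted log2 difference (horizontal axis) of 1 tested member of the list named at the left, with the number tested in brackets and the list's median as a black bar. Among the 16 lists plotted, out of 37, Wnt targets have the median furthest to the right (3.34) and interferon response genes the median furthest to the left (-0.64). Some lists not plotted have lower medians, such as 5 keratinocyte genes (-1.30). The points of Cdx1, Sp8 and Lin28a beyond 6 have no count without GSK3 inhibitors and are no measure of size.

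Interferon response genes were in part higher without GSK3 inhibitors. These genes are switched on by type I interferon and many encode antiviral proteins. Of 23 tested, 12 were higher without GSK3 inhibitors and 0 higher without bFGF, where 5.37% of all genes tested were called higher without GSK3 inhibitors. The median was -0.64, with -0.82 on day 3 and -0.46 on day 7. On day 3, 8 members were at least 2-fold higher without GSK3 inhibitors, where 3.15% of all genes with at least 5 CPM were. On day 7, 2 members were, where the share over such genes was 5.41%.

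The interferon-stimulated response element, a short sequence found in the promoters of such genes, was searched as GAAA, any 2 bases and GAAA (NN between the blocks), on both strands of the same RefSeq windows (GRCm38.p6). It occurred in 3.99% of all gene symbols with a window, in 8 of the 10 called members with a window, and in 5 of the 7 other members with one. The promoters of Oas3, Ifit3 and Isg15 are shown because each holds the element in a member that was called. They are the 250 bases before the start, with matches in capitals, which run together where they overlap.
Oas3 promoter, chr5:120777660-120777909, minus strand: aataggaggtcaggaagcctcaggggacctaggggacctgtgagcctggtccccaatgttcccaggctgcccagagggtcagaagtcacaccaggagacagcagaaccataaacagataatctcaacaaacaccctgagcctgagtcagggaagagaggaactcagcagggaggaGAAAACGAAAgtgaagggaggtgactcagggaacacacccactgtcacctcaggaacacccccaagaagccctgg
Ifit3 promoter, chr19:34583279-34583528, plus strand: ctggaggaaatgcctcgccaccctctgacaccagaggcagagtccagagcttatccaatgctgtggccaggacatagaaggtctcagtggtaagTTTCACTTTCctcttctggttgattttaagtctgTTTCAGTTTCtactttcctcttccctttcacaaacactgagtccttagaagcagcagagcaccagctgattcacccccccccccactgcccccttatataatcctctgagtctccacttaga
Isg15 promoter, chr4:156200819-156201068, minus strand: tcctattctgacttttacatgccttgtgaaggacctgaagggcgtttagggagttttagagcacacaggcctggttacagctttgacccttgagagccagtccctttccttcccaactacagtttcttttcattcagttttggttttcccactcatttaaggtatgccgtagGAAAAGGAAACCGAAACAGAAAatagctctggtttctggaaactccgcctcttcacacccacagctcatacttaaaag

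Oas3, a sensor of double-stranded RNA on chromosome 5 (120753098 to 120777661, mm10, ENSMUSG00000032661), stood at 12.7 and 21.4 CPM without bFGF and at 66.8 and 79.1 CPM without GSK3 inhibitors. The difference was -2.15 (SE 0.21, edgeR adjusted p = 0.000129). Ifit3, which binds viral RNA, stood at 22.1 and 26.5 against 55.8 and 48.7 CPM (-1.10, SE 0.18, edgeR adjusted p = 0.00347). Both kept their calls in every alternative with day as a block, and both were also above the vitamin C-free libraries, at 7.55 and 16.2 CPM for Oas3 and at 10.1 and 10.6 CPM for Ifit3. Irf7, which amplifies the interferon signal, stood at 88.3 and 69.5 against 156 and 172 CPM (-1.07, SE 0.17), and Rsad2 (viperin) at 14.8 and 22.7 against 41.5 and 36.9 CPM (-1.10, SE 0.21). Isg15, a ubiquitin-like modifier, was called at a smaller difference (-0.59, SE 0.15), at 91.8 and 110 against 141 and 162 CPM. Irf7 lost its call without either day 7 library, Rsad2 without the day 3 library of either medium, and Isg15 without any 1 of the 4 libraries. On the list, 3 calls were left without either day 3 library, 4 without the bFGF-free library of day 7, 7 without the GSK3 inhibitor-free library of day 7, and 4 with the OSK libraries added.

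Fibroblast and mesenchymal genes were in part higher without bFGF. Of 32 tested, 10 were higher without bFGF and 1 higher without GSK3 inhibitors, with a median of 0.39, where 5.35% and 5.37% of all genes were called in these directions. On day 3, 5 were at least 2-fold higher without bFGF and 1 without GSK3 inhibitors (2.65% and 3.15% of all genes with at least 5 CPM). On day 7, 4 were in each direction (4.62% and 5.41%), so that the list was not one-sided on that day by this measure. Col1a1, the main fibrillar collagen chain, stood at 2326 and 1345 CPM without bFGF and at 871 and 604 CPM without GSK3 inhibitors (1.28, SE 0.18, edgeR adjusted p = 0.00117). Col6a2 stood at 637 and 690 against 278 and 355 CPM (1.08, SE 0.17), and both kept their calls in every alternative with day as a block. Col5a1 stood at 495 and 382 against 258 and 201 CPM (0.93, SE 0.17), lost without the bFGF-free library of day 7. Other called members were Sparc, a collagen-binding protein (0.95, SE 0.19), the growth factor receptor Pdgfrb (0.79, SE 0.16) and the proteoglycan Lum (1.40, SE 0.27). The call for Sparc was lost without either day 3 library, that for Pdgfrb without either GSK3 inhibitor-free library, and that for Lum without either day 7 library. In each of these 6 genes both libraries without bFGF were above both without GSK3 inhibitors. As the genes were named for their calls on these libraries, that order is no further support.

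S100a4, a calcium-binding protein often used as a fibroblast marker, had the opposite order, at 34.5 and 11.6 CPM without bFGF and 84.8 and 52.9 CPM without GSK3 inhibitors (-1.73, SE 0.21, edgeR adjusted p = 0.0006). The count of members higher without bFGF was 4 without the bFGF-free library of day 7, 4 without the GSK3 inhibitor-free library of day 3, 5 without that of day 7, and 4 with the OSK libraries added or in limma on log2(TPM + 1).

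Matrix-degrading enzymes split. Mmp13, a collagenase on chromosome 9 (7272514 to 7283331, mm10), stood at 39.2 and 44.5 CPM without bFGF and at 4.39 and 3.24 CPM without GSK3 inhibitors (3.46, SE 0.25, edgeR adjusted p = 2.95e-05). The vitamin C-free libraries, at 4.03 and 3.29 CPM, were close to the latter. Mmp3 (stromelysin), on the same chromosome at 7445822 to 7455975, had the reverse order, at 6.11 and 5.82 against 49.1 and 40.4 CPM (-2.89, SE 0.23, edgeR adjusted p = 3.61e-05), with 12.1 and 6.97 CPM without vitamin C. Both calls held in every alternative with day as a block. Mmp2, a gelatinase, was higher without bFGF (539 and 495 against 275 and 251 CPM, 0.98, SE 0.16), and Timp3, a metalloproteinase inhibitor, higher without GSK3 inhibitors (269 and 181 against 477 and 319 CPM, -0.82, SE 0.16). The last 2 calls were lost without the bFGF-free library of day 7. On this list of 16 tested genes 3 were called higher without bFGF and 2 higher without GSK3 inhibitors, against 5.35% and 5.37% of all genes. Without the bFGF-free library of day 7 it was 1 in each direction, and without the GSK3 inhibitor-free library of day 3 it was 3 in each.

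**Figure D4:**
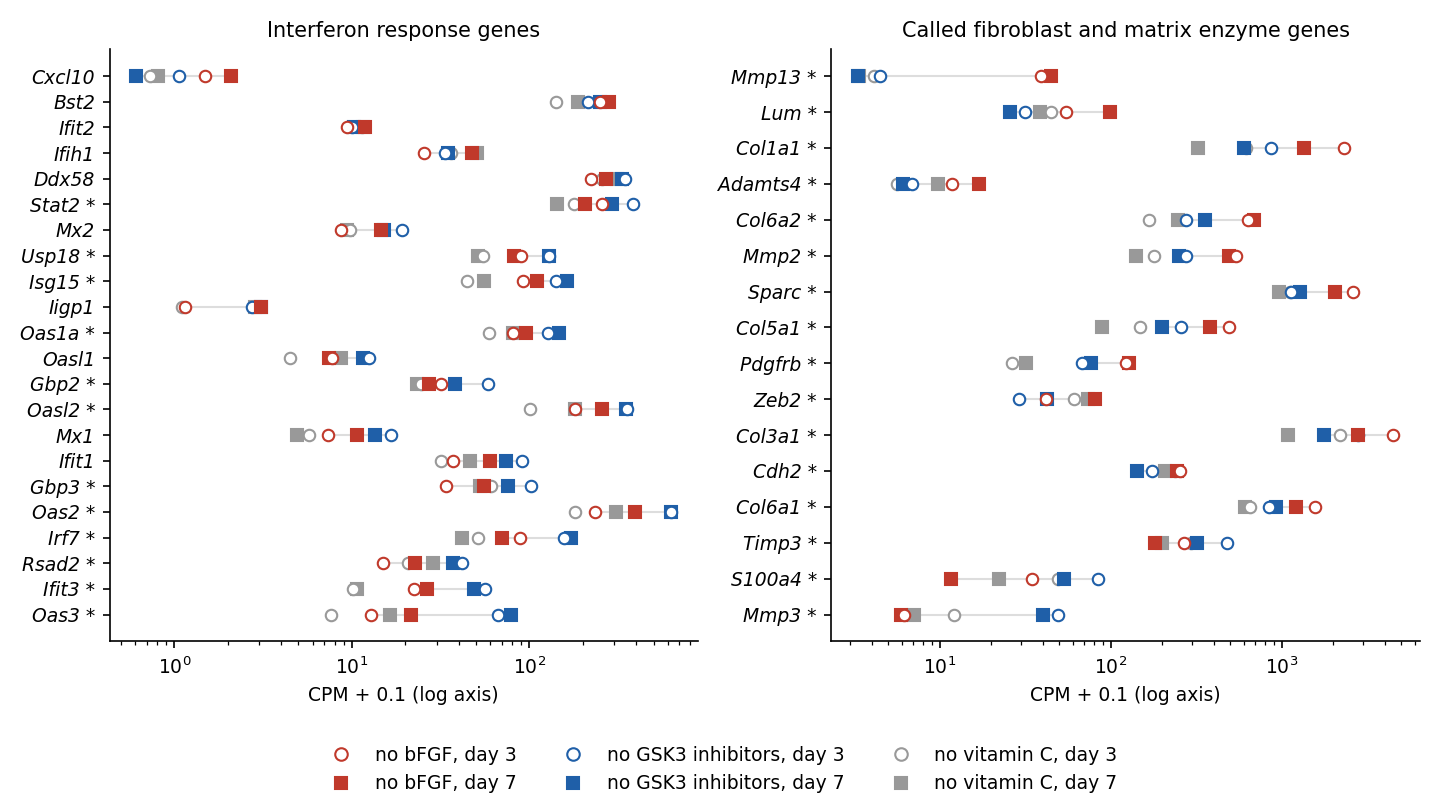
Level in CPM plus 0.1 (log axis), 1 point per library, of tested interferon response genes (left) and of the called fibroblast genes and matrix enzymes (right), each sorted by fitted difference with an asterisk where called. Oas3 and Ifit3 have both points without GSK3 inhibitors above both without bFGF, while Mmp13 and Mmp3 have reverse orders.

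BMP and TGF-beta genes were mixed. Of 19 BMP and Id genes, 5 were higher without bFGF and 2 lower, against 5.35% and 5.37% of all genes. The counts were 1 and 0 without either day 7 library, 2 and 0 without the bFGF-free library of day 3, 3 and 1 with the OSK libraries, and 1 and 2 in limma on log2(TPM + 1). Id2, an inhibitor of bHLH factors, stood at 46.7 and 106 CPM without bFGF and at 17.1 and 24.7 CPM without GSK3 inhibitors (1.79, SE 0.19, edgeR adjusted p = 0.00023), held in every alternative with day as a block. Bmp2 stood at 5.32 and 10.7 against 1.91 and 2.81 CPM (1.71, SE 0.36), and lost its call without either day 7 library and without the bFGF-free library of day 3. Of 17 TGF-beta targets, 2 were higher without bFGF and 1 lower, and 1 and 0 without either bFGF-free library. Tgfbi, a matrix protein, stood at 124 and 233 against 50.6 and 52.5 CPM (1.73, SE 0.20) in every alternative with day as a block.

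Of the 3 introduced factors, 1 was called. Pou5f1 (Oct4) stood at 79.9 and 82.3 CPM without bFGF and at 74.9 and 91.9 CPM without GSK3 inhibitors (-0.03, SE 0.19, edgeR adjusted p = 0.953), and the media overlapped. Klf4 stood at 1016 and 804 against 1215 and 1001 CPM (-0.29, SE 0.17, edgeR adjusted p = 0.319). Sox2 stood at 482 and 345 against 628 and 604 CPM (-0.60, SE 0.17, edgeR adjusted p = 0.0456), just past the threshold, and lost its call in 9 of the alternatives: the fit to the 4 libraries alone, the fit with the OSK libraries, no day block, the series table, and without any 1 library except the GSK3 inhibitor-free library of day 3. Counts do not separate introduced from native transcripts.

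Pluripotency genes went both ways. Of 12 early members tested, 2 were higher without bFGF and 2 higher without GSK3 inhibitors, and of 13 late members 2 and 4. Of all genes tested, 5.35% and 5.37% were called in these directions. Over both lists these few calls moved with single libraries: without the bFGF-free library of day 7 no early member was called, and without that of day 3 no late member was called higher without GSK3 inhibitors. Lin28a, an early member called higher without bFGF, had 33 counts on day 7 without bFGF and 0 in its partner library. It did not keep its call in 11 of the alternatives. Sall4, a factor of pluripotent cells that can bind Oct4, stood at 1.31 and 49.5 CPM without bFGF and at 0.877 and 16 CPM without GSK3 inhibitors (1.39, SE 0.29). Sall1 stood at 16.2 and 86.5 against 6.86 and 21.1 CPM (1.68, SE 0.22, edgeR adjusted p = 0.00063), apart on both days and in every alternative with day as a block. Dppa5a had no count on day 3 in either medium and stood at 12.3 and 2.39 CPM on day 7 (2.32, SE 0.50). Sall4 and Dppa5a lost their calls without either day 7 library, and the fitted difference of Dppa5a was -0.87 without the bFGF-free one.

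Higher without GSK3 inhibitors were Upp1, a uridine phosphorylase, at 44.6 and 30.5 against 136 and 141 CPM (-1.94, SE 0.32), Fbxo15, an Oct4 target, at 19.9 and 27.2 against 33.5 and 52.3 CPM (-0.85, SE 0.19), and Zfp42 (Rex1) at 2.50 and 6.03 against 11.6 and 15.3 CPM (-1.80, SE 0.37). Nr0b1 (Dax1), a nuclear receptor of embryonic stem cells, stood at 0.460 and 1.46 against 6.06 and 5.28 CPM (-2.62, SE 0.46, edgeR adjusted p = 0.00477). Upp1 lost its call without either bFGF-free library, Fbxo15 without either day 7 library or the GSK3 inhibitor-free library of day 3, Zfp42 without either day 3 library or the bFGF-free library of day 7, and Nr0b1 without the bFGF-free library of day 3. Nanog stood at 0.197 and 11.0 against 0.399 and 19.7 CPM and was not called (edgeR adjusted p = 0.268). The adhesion gene Cdh1 (E-cadherin), a mark of the epithelial change in reprogramming, stood at 30.2 and 130 CPM without bFGF and at 14.5 and 28.6 CPM without GSK3 inhibitors (1.59, SE 0.53, edgeR adjusted p = 0.156). The library without bFGF was above its partner on both days, with 1 library each, and the test was not passed. Of 24 epithelial genes tested, 1 was called in each direction, near the shares over all genes (5.35% and 5.37%).

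The largest fitted differences outside these groups were as follows. Ptprr, a tyrosine phosphatase that acts on ERK, had 59 and 536 counts without bFGF (3.88 and 27.9 CPM) and 1 and 2 counts without GSK3 inhibitors. The ratios were 48.6 (95% counting interval 8.39 to 1951) on day 3 and 164 (45.1 to 1354) on day 7. The fitted difference was 6.84 (SE 0.54, edgeR adjusted p = 3.61e-05). Bpifb5, a lipid-binding protein gene, had 74 and 348 counts against 1 and 2 (6.53, SE 0.63). Lypd6, which enhances Wnt signalling at its co-receptors, stood at 10.6 and 20.7 against 0.479 and 0.767 CPM (4.63, SE 0.39), and Egfl6, a secreted matrix protein, at 140 and 220 against 7.82 and 14.5 CPM (4.07, SE 0.33). These 4 calls held in every alternative with day as a block. Gbx2, a homeobox gene, stood at 3.42 and 47.1 against 0.479 and 2.39 CPM (3.90, SE 0.37).

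Rpl9-ps7 stood at 59.7 and 56.7 CPM without bFGF and at 2.07 and 0.937 CPM without GSK3 inhibitors. It is a processed pseudogene of a ribosomal protein gene, and reads shared with the parent gene make its level uncertain. Its call was lost without either bFGF-free library. Scgn had 303 counts on day 7 without bFGF and 0 in the partner library, at least 61.6-fold higher, and 3 and 0 counts on day 3. It did not keep its call in 8 of the alternatives, among them without either day 7 library, in DESeq2 and in both limma fits.

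Oit1, on chromosome 14 (8348937 to 8378754, mm10, ENSMUSG00000021749), had the smallest p of all genes. It stood at 62.1 and 52.5 CPM without GSK3 inhibitors, at 2.82 and 2.08 CPM without bFGF and at 8.43 and 7.13 CPM without vitamin C (-4.55, SE 0.22, edgeR adjusted p = 1.38e-06). Scn10a, a sodium channel of sensory neurons, stood at 45.1 and 38.1 against 1.25 and 3.17 CPM (-4.22, SE 0.36), and Nccrp1 at 46.4 and 27.5 against 3.09 and 2.60 CPM (-3.65, SE 0.25). Mcpt1, a mast cell protease, stood at 31.2 and 36.3 against 4.47 and 1.87 CPM (-3.49, SE 0.34), and Itgb7, an integrin chain of leukocytes, at 13.1 and 10.3 against 1.12 and 0.728 CPM (-3.67, SE 0.37). The tachykinin gene Tac2 stood at 18.5 and 87.9 against 2.10 and 5.46 CPM (-3.68, SE 0.36), and Rgs5, a regulator of G-protein signalling found in pericytes, at 22 and 11.8 against 1.25 and 0.624 CPM (-4.23, SE 0.41). In each of these 7 genes the libraries without GSK3 inhibitors lay far above those without bFGF, which largely follows from choosing the largest differences. The calls held in every alternative with day as a block.

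**Figure D5:**
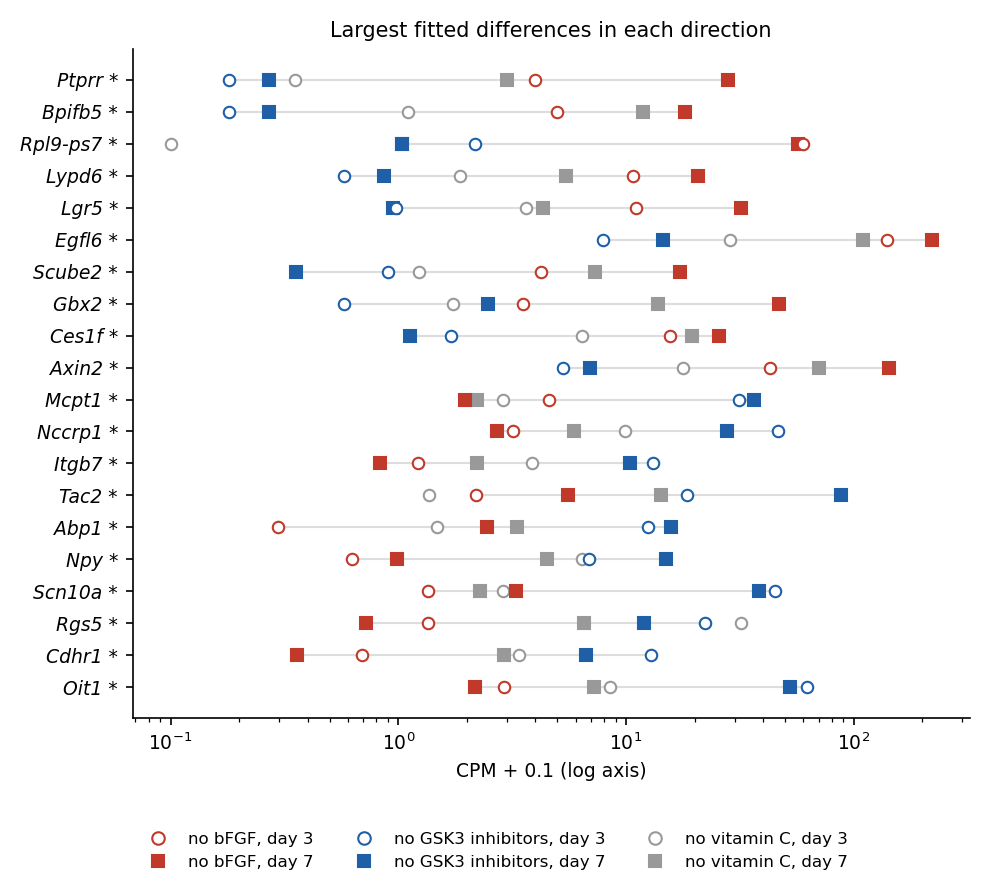
Level in CPM plus 0.1 (log axis), 1 point per library, of the 10 genes with the largest fitted difference in each direction among called genes with a mean of at least 5 CPM. In the upper 10 both points without bFGF lie to the right of both without GSK3 inhibitors, and in the lower 10 the order is reversed. This separation largely follows from choosing the largest called differences. Rgs5 also stands high without vitamin C (31.7 and 6.42 CPM).

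Muscle, bone and imprinted genes supplied single large differences. Myh1, a fast skeletal myosin heavy chain, stood at 595 and 694 CPM without GSK3 inhibitors and at 84.9 and 56.0 CPM without bFGF (-3.29, SE 0.49, edgeR adjusted p = 0.02), although Myod1, Myog, Myf5 and Myf6, the master factors of muscle, had no count in any of the 4 libraries. Its neighbour Myh2 stood at 275 and 341 CPM without GSK3 inhibitors and at 174 and 188 CPM without bFGF (-0.77, SE 0.17). These genes are similar in sequence, and how shared reads were divided limits both. Both calls were lost without either bFGF-free library, and that for Myh2 also without the GSK3 inhibitor-free library of day 7. Spp1 (osteopontin), a secreted phosphoprotein, stood at 237 and 169 CPM without GSK3 inhibitors and at 45.8 and 26.8 CPM without bFGF (-2.52, SE 0.21, edgeR adjusted p = 6.64e-05). Among 16 imprinted genes 2 were called in each direction, against 5.35% and 5.37% of all genes. Higher without GSK3 inhibitors were Rtl1, at 101 and 38.6 against 17.3 and 2.86 CPM (-3.10, SE 0.29), and Nnat, at 150 and 162 against 69.9 and 44.3 CPM (-1.49, SE 0.19). Higher without bFGF were Plagl1, at 106 and 143 CPM against 44.7 and 70.7 CPM without GSK3 inhibitors (1.13, SE 0.18), and Peg3 (0.83, SE 0.18). Spp1, Rtl1 and Nnat held in every alternative with day as a block, Plagl1 lost its call without the bFGF-free library of day 7, and Peg3 without either day 7 library.

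Among 16 genes of amino acid stress and transport, 4 were higher without bFGF and 1 lower, against 5.35% and 5.37% of all genes. Those higher without bFGF were 2 without the bFGF-free library of day 7 and 1 without the GSK3 inhibitor-free library of day 7. The serine synthesis enzyme Psat1 stood at 310 and 312 CPM without bFGF and at 132 and 142 CPM without GSK3 inhibitors (1.18, SE 0.16, edgeR adjusted p = 0.000744), and its pathway partner Phgdh at 87.8 and 72.1 against 46.6 and 38.7 CPM (0.91, SE 0.17). Slc7a3, a transporter of cationic amino acids, had the reverse order, at 97.2 and 84.4 against 321 and 354 CPM (-1.90, SE 0.18), with its relative Slc7a1 at 98.0 and 121 against 54.1 and 48.6 CPM (1.09, SE 0.17). Psat1 and Slc7a3 held in every alternative with day as a block, Phgdh lost its call without either day 7 library or the GSK3 inhibitor-free library of day 3, and Slc7a1 without the GSK3 inhibitor-free library of day 7. Tet2, an enzyme that oxidizes methylated cytosine, was higher without GSK3 inhibitors (96.1 and 147 against 46.6 and 69.4 CPM, -1.06, SE 0.16), also in every alternative with day as a block. The chemokine Cxcl12 stood at 125 and 70.4 CPM without GSK3 inhibitors and at 30.4 and 8.58 CPM without bFGF (-2.57, SE 0.34), a call lost without either bFGF-free library.

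No gene was called among 20 of mitosis, 20 of DNA replication, 11 neural genes or 9 smooth muscle genes. The same held for 9 of the enzymes that lithium inhibits and of inositol metabolism. Over all genes tested, 10.7% were called in either direction, so that 0 calls in a short list say little. Mki67, a proliferation marker, stood at 141 and 301 CPM without bFGF and at 97.2 and 233 CPM without GSK3 inhibitors (0.44, SE 0.18, edgeR adjusted p = 0.145). Top2a stood at 155 and 329 against 127 and 242 CPM (0.37, SE 0.17, edgeR adjusted p = 0.202). The medians of the mitosis and DNA replication lists were -0.11 and 0.07. That of the neural list was 0.67, with a median log2 ratio of 0.19 on day 3 and 0.78 on day 7. Of its 11 tested members 10 were higher without bFGF though not called, where the median fitted difference over all genes was 0.01. Inpp1, an enzyme that lithium inhibits, stood at 15.8 and 12.1 against 17.9 and 18.5 CPM (-0.40, SE 0.22, edgeR adjusted p = 0.283). A test that was not passed does not show that these genes were equal in both media.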

How the data were processed

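Total RNA was sequenced from TruSeq libraries, per the labels' protocols. RSEM 1.2.4 and the mm10 build are named in the submitters' processing notes. No aligner, strandedness or read length was found in these sources. Per library, the authors deposited expected counts and TPM of 24130 genes, columns that the file headers name. A further deposited table for the series holds a score, whole numbers with the same median (374) and maximum (58542) in all 22 columns, used only as an alternative. Symbols came from that table for 12897 genes and from the reference annotation for 10788, and 445 had none.

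Expected counts were rounded and fitted with edgeR 4.0.16 (TMM, filterByExpr, robust quasi-likelihood, medium plus day) on 6 libraries, the 4 compared and both without vitamin C, with 2 residual degrees of freedom and a biological coefficient of variation of 0.151. The Benjamini-Hochberg adjustment ran over all genes, with a threshold of 0.05. Single-day ratios used a prior count of 2 and have no test. No label states separate cultures, so p-values measure only the spread between these libraries. Intervals are exact and cover counting error only. The software was R 4.3.3, limma 3.58.1 and DESeq2 1.42.0 (alternatives).

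The gene lists, comparison and naming rule were chosen with earlier results of these data known. The rule took the 3 factors, members of the Wnt target and FGF/ERK feedback lists with at least 5 CPM in 1 of the 4 libraries, the 10 largest called differences in each direction whose mean reached 5 CPM, up to 4 members of every other list with the smallest p and 5 CPM in 1 library, and the 5 largest ratios per day and direction at 10 CPM. Sp8, Cdx1, Nanog, Lin28a, Isg15, Sparc, Pdgfrb, Lum, Tcf7l2, Fgf2, the factors of muscle, and genes named as untested or by promoter motif were chosen after their values were seen. Some genes of the lists are not reported here.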

Additional observations from a re-analysis of the deposited data

Results flagged for a closer look

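Of the genes at least 2-fold apart on both days, 2 had opposite directions on days 3 and 7. Xist, the noncoding RNA of the inactive X chromosome, stood at 55.8 and 121 CPM on day 3, without bFGF and without GSK3 inhibitors, a log2 ratio of -1.12. On day 7 it stood at 143 and 71.6 CPM, a ratio of 1.00. Zcchc5 stood at 22.1 and 9.49 CPM on day 3, a ratio of 1.21, and at 4.89 and 15.4 CPM on day 7, a ratio of -1.63. The difference between days was not tested, since each medium and day is 1 library. All 4 Y-linked genes measured were higher without bFGF on both days, and none was called.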

How the results depend on the processing

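The number of genes called (1497) stayed within 1.5 times with the 4 libraries alone, RLE size factors, DESeq2, other filters, the series table or the GC trend removed (1136 to 2090 calls). It was 437 with both OSK libraries of the other technical set, 690 in limma on log2(TPM + 1), and 2 with no day block, which leaves differences between days in the error. In limma on TPM 32.2% of calls were higher without bFGF, against 49.9%. Leaving out 1 library gave 267 to 1808 calls. Called Wnt targets (10) numbered 5 in limma on TPM, 0 with no day block, and 4 to 15 with 1 library left out. For the next 2 lists the same alternatives were added after the data were seen. Called interferon response genes (12) numbered 4 with OSK, 7 in limma on TPM, 0 with no day block, and 3 to 12 with 1 library left out. Called fibroblast genes (10) numbered 4 with OSK, 4 in limma on TPM, 0 with no day block, and 4 to 11 with 1 library left out. At a minimum of 1 CPM, where few counts decide, 1192 genes were 2-fold apart on day 3, 1808 on day 7 and 642 on both. With 1 library left out, the fitted difference of Dppa5a ranged from -0.87 (without the bFGF-free library of day 7) to 2.37. That of Sp8 ranged from -0.95 to 7.45 and that of Lin28a from -0.0101 to 7.53, both lowest without the GSK3 inhibitor-free library of day 7. None of these genes had a count on day 3 in either medium. With a day 7 library left out, their values thus compare no counts within a day and are no measure of a difference. Of 116 named genes called, 36 kept the call in every alternative with day as a block. With 1 library left out, 46 (bFGF-free, day 7), 58 (GSK3 inhibitor-free, day 7), 76 (bFGF-free, day 3) and 90 (GSK3 inhibitor-free, day 3) kept it. Day paired the libraries in all fits but that with no day block, and the labels give no replicate number to block on. Depth limits genes below about 0.256 CPM, the value of 3 counts.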
